A study of Bos taurus with 16 samples.

Results

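Of the 10 genes described here, all but MUSTN1 belong to the ubiquitin ligases and the FOXO factors that control protein breakdown. The ubiquitin ligase genes are FBXO32 (atrogin-1), TRIM63 (MuRF1), FBXO30, FBXO40 and NEDD4, with the ligase adaptor gene KLHL40. The transcription factor genes are FOXO1, FOXO3 and FOXO4. MUSTN1 is a gene of growing and regenerating muscle. All 10 were chosen by name, with earlier results of these data known. Their symbols were matched to the gene IDs of the deposited count table. All 10 were found among the 34109 listed genes and passed the filter on low counts. Both muscles came from 8 male Hanwoo calves, a Korean beef breed, sampled at birth before any colostrum. The 4 control calves were born to cows fed 100% of the nutritional requirement, and the 4 treated calves to cows fed 150% in mid to late pregnancy. The samples were the round muscle of the hind leg and the sirloin muscle, giving 16 libraries in which the same replicate number marks both muscles of a calf. The 4 calves of a diet are its replicates.

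Muscle protein is removed largely by the ubiquitin-proteasome system, in which a ligase selects a protein and attaches ubiquitin chains that send it to the proteasome. FOXO transcription factors switch on ligase and autophagy genes when insulin and growth factor signals are low, and AKT kinases hold them out of the nucleus when those signals are high. FBXO32 and TRIM63 are the classical markers of muscle wasting, whereas KLHL40 protects proteins of the thin filament and MUSTN1 is a small nuclear protein of growing and regenerating muscle.

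Total counts ranged from 44473011 to 72446933 per library, and control replicate 2 had the highest total in each muscle. Skeletal muscle fibre markers were abundant in all 16 libraries, with a summed TPM (transcripts per 1000000, the authors' value per gene length) of 55300 to 101000, so that the tissue label held. Some libraries stood apart. The deposited TPM of both libraries of control replicate 2 summed to 1000000, and those of the other 14 libraries to between 999756 and 999858. The round library of control replicate 2 also had the highest summed TPM of fibroblast markers, 1470 against 237 to 396 in the other round libraries, and of tendon markers, 74.7 against 1.85 to 6.78. Adipocyte markers summed to 3780 TPM in the sirloin library of treated replicate 4 and to at most 15 TPM in every other library. Red blood cell markers summed to 12.2 to 36.3 TPM in treated and 3.34 to 18.0 TPM in control round muscle, and to 12.3 to 35.6 and 2.91 to 13.7 TPM in sirloin muscle, with SLC4A1, a membrane protein of these cells, at 0 in every library. In edgeR's test of diet 0 of 49 marker genes passed in either muscle. In each muscle 8 of the 49 had an unadjusted p under 0.05, a larger share than the 4.41% of all genes in round and 3.91% in sirloin muscle. DESeq2 called 2 of the 49 lower in treated round muscle, CNN1 of smooth muscle (log2 fold change −1.78, adjusted p = 4.47e-05) and TNMD of tendon (−7.38, adjusted p = 0.00321), and 0 in sirloin muscle. Over all genes DESeq2 called 0.208% in round and 0.0597% in sirloin muscle. It gave no adjusted p for 4 of the 49 in round and 7 in sirloin muscle. In whole muscle, fewer cells of a type and less RNA per cell cannot be told apart.

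On the scale per gene length, MUSTN1, KLHL40 and TRIM63 were the most abundant of the 10 genes in both muscles and NEDD4 the least. In round muscle the mean TPM was 1530 ± 1080 (SD, n = 8) for MUSTN1, 660 ± 677 for KLHL40 and 518 ± 458 for TRIM63. KLHL40 lay above TRIM63 in 5 of 8 round libraries, so their order was not fixed. FBXO40, a muscle F-box protein that marks an insulin receptor adaptor for breakdown, followed at 104 ± 52.1 TPM (SD, n = 8), and FBXO32, which marks MYOD1 and an initiation factor of translation, at 62.3 ± 47.2 TPM. FOXO3 (34.2 ± 13.6 TPM) and FOXO1 (30.1 ± 17.7 TPM) were not separated, with FOXO3 above FOXO1 in 4 of 8 round libraries. FOXO4 (15.9 ± 3.92 TPM) and FBXO30 (13 ± 5.46 TPM) were not separated either, and NEDD4 had 5.51 ± 1.97 TPM. In sirloin muscle TRIM63 came first with 746 ± 627 TPM (SD, n = 8), but it lay above MUSTN1 (442 ± 191 TPM) in only 5 of 8 libraries. KLHL40 followed at 253 ± 125 TPM and FBXO32 at 156 ± 132 TPM, the latter above FBXO40 (100 ± 46.3 TPM) in 4 of 8 libraries. The lower places were held by FOXO3, FOXO1, FBXO30, FOXO4 and NEDD4, from 64.8 ± 42.7 TPM for FOXO3 to 4.95 ± 1.66 TPM for NEDD4.

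The classical atrophy ligases ranged widely from calf to calf within each diet. Values for single libraries are given from here on in CPM, counts per 1000000 after TMM scaling, which compare a gene between libraries. In round muscle FBXO32 measured 33.4, 12.1, 153 and 95.8 CPM in control replicates 1 to 4 and 30.3, 27.3, 90.1 and 41.1 CPM in treated replicates 1 to 4. In sirloin muscle it measured 63.6, 28.5, 297 and 105 CPM in the control and 30.7, 254, 268 and 55.4 CPM in the treated replicates. The groups overlapped in both muscles, and control replicate 2 had the lowest value of FBXO32 in each muscle.

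TRIM63, the ligase that marks thick filament proteins such as myosin, measured 254, 80.6, 1450 and 1430 CPM in control and 235, 372, 452 and 359 CPM in treated round muscle. In sirloin muscle TRIM63 measured 457, 51.2, 1300 and 1050 CPM in control and 116, 1710, 998 and 326 CPM in treated calves. Control replicates 3 and 4 lay above all treated calves in round muscle but not in sirloin muscle, where treated replicate 2 was highest.

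FBXO30 (MUSA1), a ligase that is induced by loss of innervation and held down by BMP signals, measured 39.7, 32.3, 128 and 121 CPM in control and 59.3, 62.7, 100.0 and 94.4 CPM in treated round muscle. Its sirloin values were 81.2, 38.6, 336 and 148 CPM in control and 61.4, 355, 324 and 149 CPM in treated calves. In both muscles the treated calves lay inside the range of the control calves, apart from treated replicate 2 at 355 CPM. The standard deviation of log2 CPM over the 16 libraries was 1.55 for TRIM63, 1.37 for FBXO32, 1.28 for MUSTN1, 1.23 for KLHL40 and 1.10 for FBXO30. Among 12315 genes with a mean of at least 1 CPM the median was 0.437, and 94.7% to 98.1% of them varied less than these 5 genes. FOXO4 was the steadiest of the 10 genes, at 0.335.

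**Figure D1:**
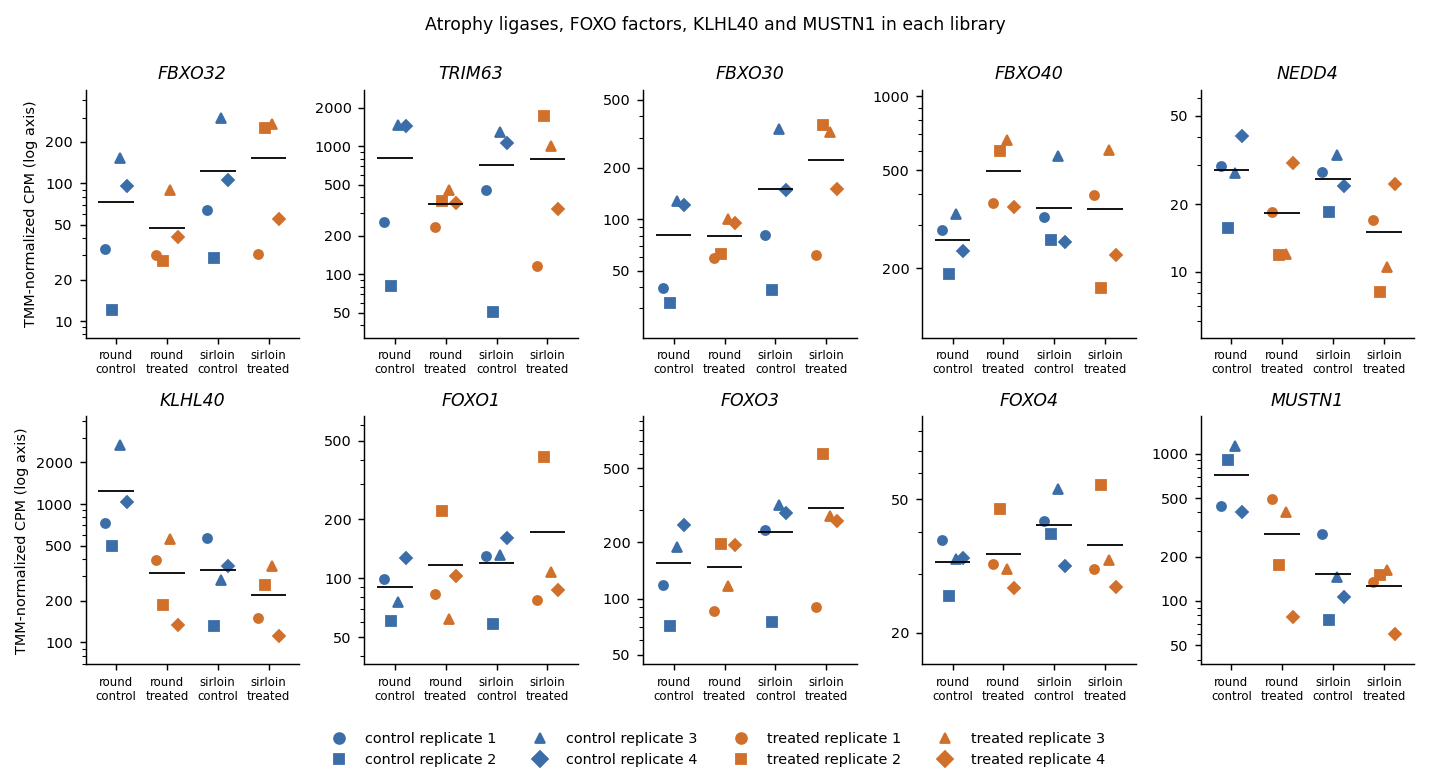
TMM-normalized CPM (log axis) of each of the 10 genes in the 16 libraries, by muscle and diet, with the symbol giving the replicate number and a line at the group mean. FBXO40 in treated round muscle (356 to 662 CPM) lies above all control round libraries (189 to 333 CPM), and in the other panels the diet groups overlap.

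In round muscle, FBXO40 was higher and KLHL40 and MUSTN1 were lower in treated than in control calves, but none of the 10 genes passed the test over all genes. Of 21677 genes tested with edgeR's quasi-likelihood test, 0.0185% (4 genes) had an adjusted p under 0.05 and 4.41% an unadjusted p under 0.05. Of the 10 genes, 0 met the first threshold and 3 the second, namely KLHL40, FBXO40 and MUSTN1. DESeq2 called 0.208% of the genes and 0 of the 10.

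FBXO40 measured 286, 189, 333 and 235 CPM in control and 370, 601, 662 and 356 CPM in treated round muscle. All 4 treated calves lay above all 4 control calves, which held for 1 of the 10 genes and in either direction for 1.76% of the genes tested. Its mean was 261 ± 62.6 CPM in the control and 497 ± 157 CPM in the treated group (SD, n = 4). The log2 fold change was 0.95 (SE 0.289, unadjusted p = 0.0066 and adjusted p = 0.864 in edgeR's quasi-likelihood test), and it stayed between 0.76 and 1.09 when each calf in turn was left out.

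KLHL40, a substrate adaptor of cullin-3 ligases that stabilises nebulin and leiomodin-3, measured 725, 499, 2690 and 1030 CPM in control and 391, 185, 559 and 133 CPM in treated round muscle. Only control replicate 2 (499 CPM) lay below a treated calf, replicate 3 at 559 CPM. Its log2 fold change was −1.94 (SE 0.572, unadjusted p = 0.0055 and adjusted p = 0.864 in edgeR's test). The fold change rested in part on control replicate 3 and was −1.23 without it, and DESeq2 gave an adjusted p of 0.111 with all calves.

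MUSTN1 measured 440.0, 913, 1120 and 401 CPM in control and 490.0, 176, 402 and 77.7 CPM in treated round muscle. The groups overlapped, because treated replicates 1 and 3 lay above the lowest control calf. The log2 fold change was −1.30 (SE 0.534, unadjusted p = 0.032 and adjusted p = 0.864 in edgeR's test) and ranged from −1.71 to −1.003 over the fits without 1 calf. Without control replicate 2, whose round library was rich in fibroblast and tendon markers, the values were 0.79 for FBXO40, −2.24 for KLHL40 and −1.21 for MUSTN1. The part of the markers of other cell types in these differences was not tested.

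The other ligases and the FOXO factors were not separated by diet in round muscle. TRIM63 had a log2 fold change of −1.16 (SE 0.691, adjusted p = 0.864, edgeR), but −0.39 in limma-voom, −0.47 with the replicate block and −1.58 to −0.72 without 1 calf, with means of 805 ± 739 CPM in the control and 355 ± 89.7 CPM in the treated group (SD, n = 4). For FBXO32 it was −0.62 (SE 0.636) and for FBXO30 0.00 (SE 0.429). NEDD4, a HECT-domain ligase that acts on membrane receptors and channels, measured 29.8, 15.7, 27.6 and 40.6 CPM in control and 18.4, 11.9, 12 and 30.7 CPM in treated round muscle, a log2 fold change of −0.62 (SE 0.365). Values for FOXO1, FOXO3 and FOXO4 were 0.40 (SE 0.384), −0.06 (SE 0.389) and 0.10 (SE 0.237).

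In sirloin muscle none of the 10 genes passed the test of diet, and NEDD4 was the only one with an unadjusted p under 0.05 in edgeR. NEDD4 measured 27.9, 18.4, 33.2 and 24.2 CPM in control and 17.0, 8.08, 10.5 and 24.6 CPM in treated sirloin muscle. Treated replicate 4 lay above control replicates 2 and 4, so the groups overlapped. Its log2 fold change was −0.80 (SE 0.338, unadjusted p = 0.038 and adjusted p = 0.876, edgeR), close to the value in round muscle, and it ranged from −1.12 to −0.59 without 1 calf. The unadjusted p in edgeR was above 0.05 without control replicate 1 (0.076), 3 (0.106) or 4 (0.054), without treated replicate 2 (0.090) or 3 (0.098), and with both muscles in 1 fit (0.052). The sirloin library of treated replicate 4, with its adipocyte transcripts, held the highest NEDD4 value of the treated group, as did the round library of this calf (30.7 CPM), in which adipocyte markers summed to 4.73 TPM. Without this calf the log2 fold change was −1.12.

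Background rates in sirloin muscle were 0.00918% (2 of 21776 genes) at an adjusted and 3.91% at an unadjusted p under 0.05. Of the 10 genes, 0 and 1 met these thresholds, and DESeq2 called 0.0597% of the genes and 0 of the 10. The diet groups of sirloin muscle were without overlap for 0 of the 10 genes and for 1.68% of all genes tested. FBXO40 measured 323, 260.0, 573 and 256 CPM in control and 396, 167, 605 and 226 CPM in treated sirloin muscle, so the separation seen in round muscle was not present there.

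KLHL40 measured 570.0, 132, 280.0 and 356 CPM in control and 150.0, 258, 357 and 111 CPM in treated sirloin muscle, where the groups overlapped, with control replicate 1 above and treated replicate 4 below all calves of the other diet. The sirloin fold changes on the log2 scale were −0.61 (SE 0.453) for KLHL40, −0.26 (SE 0.421) for MUSTN1 and −0.02 (SE 0.410) for FBXO40. Those of FBXO32, TRIM63 and FBXO30 were 0.30 (SE 0.773), 0.14 (SE 0.881) and 0.55 (SE 0.652). Without control replicate 3 those of FBXO32 and FBXO30 were 1.22 and 1.32, and without treated replicate 2 that of TRIM63 was −0.58. FOXO1, FOXO3 and FOXO4 had 0.52 (SE 0.532), 0.41 (SE 0.535) and −0.20 (SE 0.264).

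Whether the diet difference differed between the muscles was tested in 1 model with calf as a block. The interaction was negative for FBXO40, with a log2 difference of −1.01 (sirloin minus round; SE 0.379, unadjusted p = 0.021, edgeR). For KLHL40 it was 1.31 (SE 0.558, unadjusted p = 0.037, edgeR) and for MUSTN1 1.35 (SE 0.589, unadjusted p = 0.041, edgeR). These 3 of the 10 genes had an unadjusted p under 0.05, as did 3.78% of 22877 genes, and 0 passed after adjustment (adjusted p = 1 for each), as against 0.00437% of all genes (1 gene). The diet difference of these genes was therefore not shown to differ between round and sirloin muscle.

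**Figure D2:**
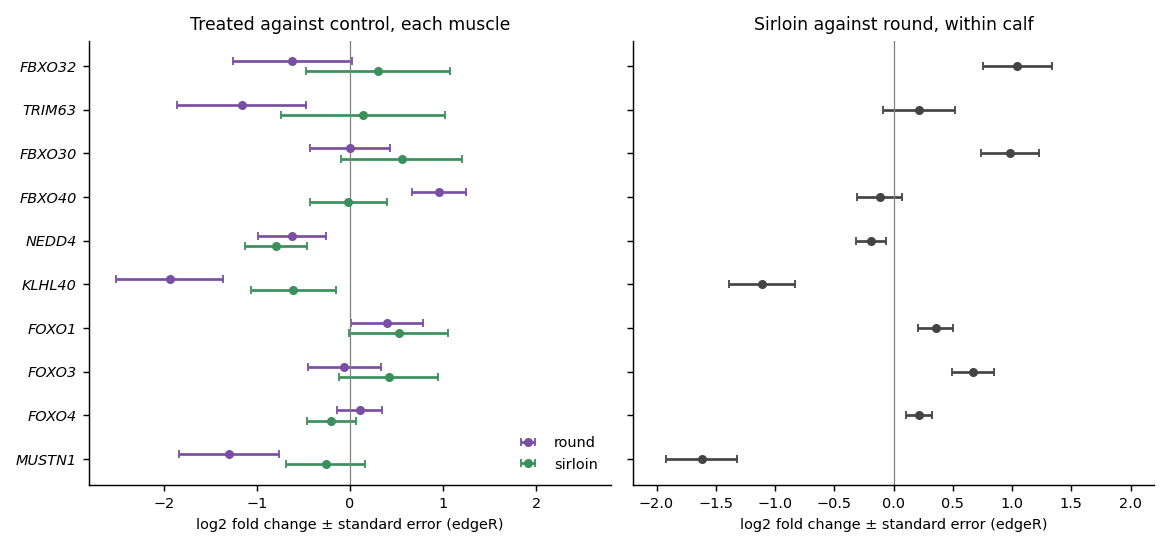
Log2 fold changes (points) with standard errors (bars) from edgeR, for treated against control calves in round and in sirloin muscle (left) and for sirloin against round muscle within calf (right). KLHL40 has the lowest diet value in round muscle (−1.94) and MUSTN1 the lowest value between muscles (−1.62, adjusted p = 0.042 in edgeR's test).

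Within calves, MUSTN1 fell in sirloin against round muscle, and FBXO32, FBXO30 and FOXO3 were higher and KLHL40 lower in sirloin muscle without passing the test. Of 22877 genes, 0.476% had an adjusted p under 0.05 in edgeR's test with calf as a block and 11.2% an unadjusted p under 0.05. These shares include genes of low count. Without such genes (filterByExpr), 2451 of 15638 had an unadjusted p under 0.05. Of the 10 genes, 1 (MUSTN1) and 6 (MUSTN1, FBXO30, KLHL40, FOXO3, FBXO32 and FOXO1) met these thresholds.

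MUSTN1 measured 283, 73.9, 146 and 107 CPM in control and 135, 150.0, 162 and 59.6 CPM in treated sirloin muscle. All 8 calves had less MUSTN1 in sirloin than in round muscle, with ratios of sirloin to round from 0.0809 in control replicate 2 to 0.85 in treated replicate 2. The log2 fold change was −1.62 (SE 0.299, adjusted p = 0.042, edgeR). Without genes of low count (filterByExpr) the adjusted p in edgeR was 0.044, in limma-voom it was 0.053 and in DESeq2 1.31e-06. When calves were left out in turn, the fold change stayed between −1.89 and −1.40, but edgeR's adjusted p ran from 0.012 to 0.16. It was under 0.05 only without control replicate 1 or without treated replicate 4, and exceeded the threshold when control replicate 2, 3 or 4 or treated replicate 1, 2 or 3 was left out (adjusted p = 0.098 without control replicate 2, edgeR). Without the block the fold change was −1.71 and the adjusted p 0.168 (edgeR). Smooth muscle markers moved the same way: 2 of 4, ACTA2 and TAGLN, were lower in sirloin muscle (log2 fold changes −0.69 and −0.70, adjusted p = 0.044 and 0.027, edgeR), and DESeq2 also called CNN1 (−1.61, adjusted p = 4.96e-05). Their list summed to 149 to 254 TPM in control and 86.1 to 194 TPM in treated round muscle, and to 61.8 to 149 TPM and 77.9 to 129 TPM in sirloin muscle, and its part in the MUSTN1 difference was not tested. Of the 49 marker genes edgeR called 2, beside 0.476% of all genes. DESeq2 called 6 lower and 1 higher in sirloin muscle, beside 3.77% of all genes. The higher one was the fibre gene DES (log2 fold change 0.35, adjusted p = 0.0193, DESeq2). Fibroblast genes lower in DESeq2 were COL1A1 (−1.07, adjusted p = 0.000685), COL3A1 (−0.691, adjusted p = 0.00371) and LUM (−0.997, adjusted p = 0.0359). In edgeR these fibroblast genes did not pass (adjusted p = 0.09, 0.117 and 0.245). Their part in the MUSTN1 difference was not tested either.

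FBXO32 was higher in sirloin than in round muscle in all 8 calves, with ratios from 1.01 in treated replicate 1 to 9.32 in treated replicate 2. Its log2 fold change was 1.04 (SE 0.290, unadjusted p = 0.0037 and adjusted p = 0.151, edgeR). FBXO30 was likewise higher in all 8 calves, with ratios from 1.03 to 5.67 and a log2 fold change of 0.98 (SE 0.242, adjusted p = 0.112, edgeR). FOXO3, the factor best known for driving FBXO32 and autophagy genes, measured 118, 71.1, 188 and 247 CPM in control and 85.5, 195, 117 and 193 CPM in treated round muscle. In sirloin muscle FOXO3 measured 234, 74.4, 316 and 288 CPM in control and 89.6, 593, 278 and 260.0 CPM in treated calves. Each calf had the higher FOXO3 value in sirloin muscle, by a ratio of 1.05 to 3.03 and a log2 fold change of 0.67 (SE 0.175, adjusted p = 0.132, edgeR). Sirloin lay above round muscle in all 8 calves for 1.34% of the genes tested and for 3 of the 10 genes, and below it in all 8 for 1.15% of the genes and 1 of the 10.

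KLHL40 was lower in sirloin muscle in 7 of 8 calves, with ratios of 0.104 in control replicate 3 to 1.39 in treated replicate 2, the exception. The log2 fold change was −1.11 (SE 0.281, adjusted p = 0.120, edgeR), and without control replicate 1 the adjusted p was 0.042. DESeq2 with the same block gave adjusted p-values under 0.05 for 5 of the 10 genes, against 3.77% of all genes. These were MUSTN1, KLHL40 (adjusted p = 0.0020), FBXO30 (0.0027), FBXO32 (0.0073) and FOXO3 (0.0096), in the directions given above.

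The remaining genes did not separate the muscles. TRIM63 was higher in sirloin muscle in 3 calves and lower in 5, with ratios of 0.494 to 4.60 and a log2 fold change of 0.22 (SE 0.303, adjusted p = 0.944, edgeR). FBXO40 was higher in 5 calves and lower in 3 (log2 fold change −0.12, SE 0.189), NEDD4 higher in 2 and lower in 6 (−0.19, SE 0.125), and FOXO4 higher in 6 and lower in 2 (0.21, SE 0.108). FOXO1 was higher in 5 of 8 calves, with a log2 fold change of 0.35 (SE 0.150, unadjusted p = 0.036 and adjusted p = 0.396, edgeR). Treated replicate 2 had the largest ratio of the 8 calves for FBXO32, TRIM63, FBXO30, KLHL40, FOXO1, FOXO3 and MUSTN1 and the smallest for FBXO40. Without this calf the log2 fold change was 0.74 for FBXO32 and 0.77 for FBXO30.

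**Figure D3:**
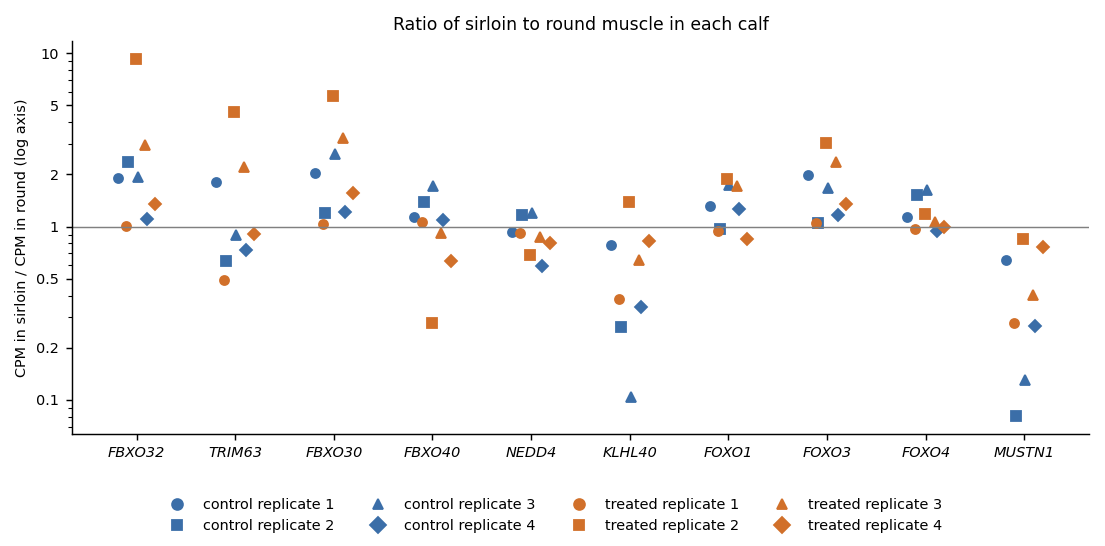
Ratio of CPM in sirloin to CPM in round muscle (log axis) of the 10 genes in each of the 8 calves, with symbols for replicate numbers and a grey line at a ratio of 1. All 8 calves lie above the line for FBXO32, FBXO30 and FOXO3 and below it for MUSTN1, and treated replicate 2 is the highest point for FBXO32 (9.32).

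FBXO32, TRIM63 and FBXO30 varied together from calf to calf. Over the 8 calves, with the mean log2 CPM of both muscles, Pearson's r was 0.937 for FBXO32 with FBXO30 (adjusted p = 0.012; Spearman's rho 0.952, adjusted p = 0.050; two-sided exact permutation tests over 45 pairs of genes). It was 0.931 for FBXO32 with TRIM63 (adjusted p = 0.014; rho 0.929, adjusted p = 0.050; exact permutation tests) and 0.909 for TRIM63 with FBXO30 (adjusted p = 0.030; rho 0.881, adjusted p = 0.081; exact permutation tests). TRIM63 with FOXO3 had r = 0.895 (adjusted p = 0.034; rho 0.881, adjusted p = 0.081; exact permutation tests). These 4 of 45 pairs passed the threshold by Pearson's r, and none by rho, where the smallest adjusted p was 0.0502 (exact permutation test). The share of all gene pairs that correlate this closely was not computed, so the relation is not shown to be particular to these genes. With the diet means removed, r was 0.970, 0.932, 0.948 and 0.902 in the same order, and the same 4 pairs passed. By rho 5 pairs then passed in permutation tests over 45 pairs. These were the 3 ligase pairs (adjusted p = 0.0089 to 0.0201), FOXO1 with FOXO3 (rho 0.929, adjusted p = 0.0201) and FBXO40 with KLHL40. The last pair had a rho of 0.952 (adjusted p = 0.0171, permutation test) and an r of 0.881 that did not pass. Its rho was 0.214 with the diet means kept. Centred values sum to 0 within each diet but were permuted across diets, so the p-values with the diet means removed are approximate, not exact.

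Without the 2 calves farthest from the median of the first gene, r was 0.866 for FBXO32 with FBXO30, 0.856 for FBXO32 with TRIM63, 0.727 for TRIM63 with FBXO30 and 0.555 for TRIM63 with FOXO3. The loss of calls with 6 calves says nothing of stability, since a single pair at the smallest possible p would still miss the threshold after adjustment over 45 pairs. Without control replicate 2, an alternative chosen after the data were seen, r was 0.897, 0.894, 0.828 and 0.802 and no pair passed. In round muscle alone the 3 ligase pairs passed by r (0.901 to 0.928) and none by rho, where the smallest adjusted p was 0.0513 (exact permutation test). In sirloin muscle alone 8 pairs passed by r, among them FOXO3 with FBXO32 (r = 0.838), TRIM63 (0.946), FBXO30 (0.885) and FOXO1 (0.859), and KLHL40 with MUSTN1 (0.846). By rho FOXO3 with TRIM63, FOXO3 with FBXO30 and TRIM63 with FOXO1 passed there (adjusted p = 0.0179, 0.0335 and 0.0257, exact permutation tests). The 3 ligase pairs did not pass by rho in sirloin muscle. In the separate muscles FBXO40 and NEDD4 were in none of the pairs that passed by r.

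**Figure D4:**
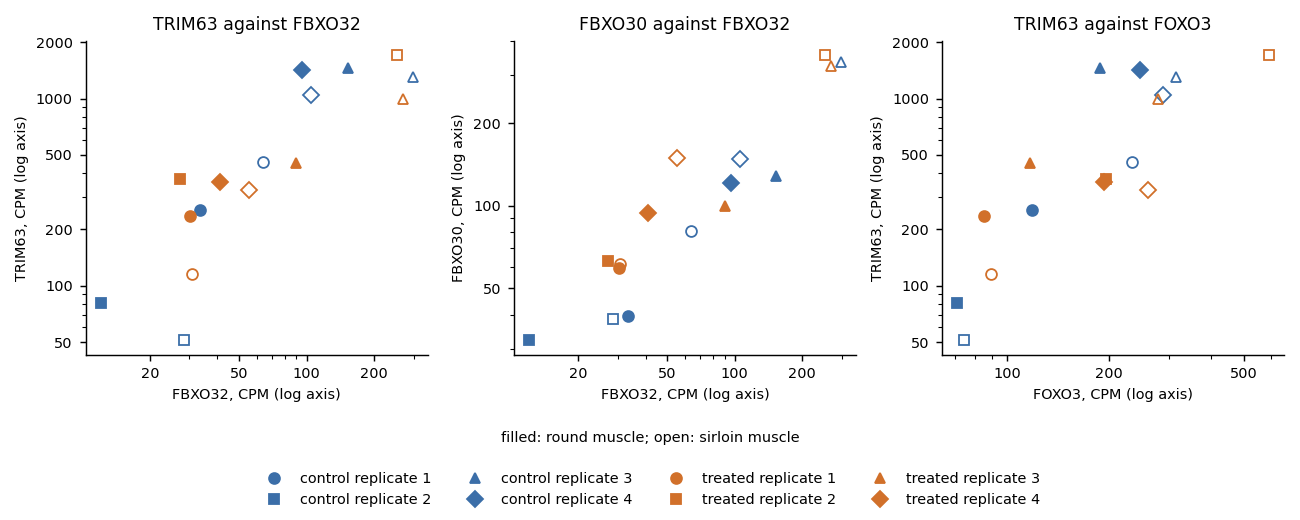
CPM (log axes) of TRIM63 against FBXO32, FBXO30 against FBXO32, and TRIM63 against FOXO3 in each library, with filled symbols for round and open symbols for sirloin muscle. The libraries of control replicate 2 lie at the low end of each panel and those of control replicate 3 toward the high end, with r over calves of 0.931, 0.937 and 0.895.

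For some genes a calf's level in round muscle went with its level in sirloin muscle. The share of all genes that do so was not computed, so this is not shown to be particular to these genes. Over genes with a mean of at least 1 CPM, the round and sirloin libraries of a calf correlated at 0.311 to 0.765 after group means were removed. Those of different calves correlated at −0.524 to 0.456. Pearson's r over the 8 calves was 0.873 for NEDD4, 0.867 for FOXO1 and 0.833 for FOXO3 (adjusted p = 0.033 for each, exact permutation test over 10 genes), and 0.801 for TRIM63 (adjusted p = 0.045, exact permutation test). Spearman's rho was 0.738, 0.690, 0.786 and 0.833, each with an adjusted p of 0.116 (exact permutation test). FBXO32 and FBXO30 had r of 0.697 and 0.731 and did not pass. MUSTN1 (0.306) and FBXO40 (0.183) had the lowest values. Without the 2 calves farthest from the median, r was 0.676 for NEDD4, 0.359 for FOXO1, 0.374 for FOXO3 and 0.557 for TRIM63, with a rho of 0.771 for TRIM63. Among these genes r fell furthest for FOXO1 and FOXO3. Leaving out the extreme calves also narrows the range over which r is taken, so this cannot show that the relations rested on those calves. Without control replicate 2, r was 0.902 for NEDD4, 0.833 for FOXO1, 0.723 for FOXO3 and 0.619 for TRIM63, and none passed. FOXO1 was high in both muscles of treated replicate 2, at 221 CPM in round and 416 CPM in sirloin muscle, against 60.6 to 127 CPM and 58.5 to 160.0 CPM in the other 7 calves.

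Over the 16 libraries, after each muscle was centred on its own mean, the genes whose log2 CPM was most like that of each gene were found among 12315 genes, as a description without a test. Genes like TRIM63 included ZFAND5 (r = 0.964), a proteasome-binding zinc finger protein, and NAMPT (0.953), which makes the NAD precursor. FBXO32 was most like ZNF316 (0.960), EIF3A (0.956), a subunit of the translation initiation factor eIF3, and ZNF746 (0.945). FBXO30 went with MAX (0.937), the partner of MYC, with ZNF598 (0.933) and with FBXO32 itself (0.927). KLHL40 and MUSTN1 shared DOT1L, a histone methyltransferase, among their 3 nearest genes (r = 0.938 and 0.889). MUSTN1 also went with FLNC (0.899) and NRAP (0.837), both muscle structural proteins, and KLHL40 with NPC1 (0.910) and RNF115 (0.882). FOXO3 went with ILKAP (0.949), BAIAP2 (0.942) and PNRC1 (0.941), and FOXO1 with CITED1 (0.910), BNIP3 (0.899), a mitophagy receptor, and GMPS (0.898). Nearest to FBXO40 were RRAGB (0.872), a GTPase of amino acid sensing, FBXO38 (0.843) and GAA (0.840), the lysosomal glucosidase. NEDD4 went with ACYP2 and CAPZA2 (0.894 each) and PCMT1 (0.880), and FOXO4 with CMYA5 (0.874) and NRDE2 (0.841). Calves, depth and library quality are shared by all these values.

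The wider pathway was described through 8 lists of 91 genes, all of which were tested. None of the 91 passed edgeR's or limma-voom's test in any of the 4 comparisons. DESeq2 called PPARGC1A lower in treated calves in both muscles, beside 0.208% of all genes in round and 0.0597% in sirloin muscle. Between the muscles it called 4 genes higher and 1 lower in sirloin muscle, beside 3.77% of all genes. At an unadjusted p under 0.05, 0 were higher and 4 lower in treated round muscle, and 0 were higher and 4 lower in treated sirloin muscle, shares near those of all genes (4.41% and 3.91%). Between the muscles 12 were higher and 4 lower in sirloin muscle, and 5 met this threshold in the interaction, beside 11.2% and 3.78% of all genes.

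Among FOXO targets in autophagy and growth arrest, 17 of 22 were higher in sirloin than in round muscle, with a median log2 fold change of 0.21 against 0.0045 over all genes, of which 50.5% were higher. Of the 22, 7 had an unadjusted p under 0.05, against 11.2% of all genes and 2451 of 15638 genes with filterByExpr, and all 7 were higher. The 22 genes were measured in the same calves and are not separate pieces of evidence. Their list was chosen with earlier results of these data known, and no test of the list was run. EIF4EBP1, a brake on translation initiation, had a log2 fold change of 0.68 (SE 0.134, adjusted p = 0.053, edgeR) and ULK1, the kinase that starts autophagy, 0.52 (SE 0.128, adjusted p = 0.107, edgeR). For the same list the median of treated against control was 0.16 in round and 0.18 in sirloin muscle, with 16 of 22 above 0 in each (51.9% and 52.9% of all genes) and 0 of 22 with an unadjusted p under 0.05. DESeq2 called EIF4EBP1 (adjusted p = 0.00019), ULK1 (0.00432) and MAP1LC3B (log2 fold change 0.41, adjusted p = 0.0139) higher in sirloin muscle.

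Among 15 regulators of FOXO factors, PPARGC1A, a coactivator of oxidative metabolism that restrains FOXO3, had the largest diet difference. It ranged from 34.9 to 540.0 CPM in control and from 23.9 to 56.3 CPM in treated round muscle, and from 43.5 to 734 CPM and from 29.4 to 63.6 CPM in sirloin muscle. The log2 fold changes were −2.71 (SE 0.665, adjusted p = 0.864, edgeR) and −2.90 (SE 0.718, adjusted p = 0.876, edgeR), with overlapping groups in both muscles, and the adjusted p in DESeq2 was 0.00753 and 0.0127. SGK1, a kinase that phosphorylates FOXO3, was lower in sirloin than in round muscle (log2 fold change −1.06, SE 0.263, adjusted p = 0.116 in edgeR and 0.00268 in DESeq2), and AKT1 had a value of 0.23 (SE 0.0927, adjusted p = 0.379, edgeR).

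Of the 4 relatives of TRIM63, TRIM55 (MuRF2) had log2 fold changes of −1.11 in round (SE 0.481, unadjusted p = 0.040, edgeR) and −0.98 in sirloin muscle (SE 0.370, unadjusted p = 0.023, edgeR), and TRIM72, a membrane repair protein, −0.56 in sirloin muscle (SE 0.249, unadjusted p = 0.047, edgeR). Of the 8 partners and kin of KLHL40, KLHL41 ranged from 3070 to 5180 CPM in control and from 2260 to 2660 CPM in treated round muscle, without overlap (log2 fold change −0.67, SE 0.259, unadjusted p = 0.025 and adjusted p = 0.864, edgeR). NEB, the nebulin that KLHL40 stabilises, had −0.53 in sirloin muscle (SE 0.237, adjusted p = 0.876, edgeR). Among 15 other muscle ligases, PELI1 had −0.63 in round muscle (SE 0.261, unadjusted p = 0.033, edgeR), and NEDD4L had 0.72 in sirloin against round muscle (SE 0.241, adjusted p = 0.248 in edgeR and 0.0472 in DESeq2).

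None of the genes of the common machinery passed the test. Of 8 genes of the SCF core that F-box proteins join, 1 had an unadjusted p under 0.05 in any comparison, NEDD8 with −0.23 between muscles (SE 0.0977, adjusted p = 0.408, edgeR). Of 17 genes of ubiquitin and conjugating enzymes, USP2 (0.31, SE 0.120) and UBE2D1 (−0.34, SE 0.148) had an unadjusted p under 0.05 between muscles and 0 did so between diets, where UBE2D1 had −0.92 (SE 0.509) in round and −0.88 (SE 0.466) in sirloin muscle. The FBXO32 substrates MYOD1 and EIF3F had log2 fold changes of −0.83 (SE 0.984) and 0.17 (SE 0.260) in round and −1.09 (SE 0.982) and 0.13 (SE 0.202) in sirloin muscle.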

How the data were processed

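Round and sirloin muscle of 8 calves was measured by RNA-seq in 16 libraries. The authors deposited read counts, whole numbers without normalization, and TPM values for 34109 genes. Their methods name Trimmomatic, SortMeRNA, HISAT2, Bowtie2 and StringTie with depletion of rRNA and globin transcripts. The submitters' processing notes name FastQC, Trimmomatic, STAR, featureCounts, DESeq2 and the build ARS-UCD1.2, and the labels state poly(A) selection. These conflicts could not be settled here and bear on how shared reads were counted. The deposited comparison tables, with the authors' fold changes and p-values, were not used.

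NCBI gene IDs were matched to symbols with RefSeq's table for ARS-UCD2.0 (30762 of 34109 IDs, 90.2%), used for names only. The members and lists were chosen with earlier results of these data known. Named genes were the 10 members, the 3 genes most like each, and at most 2 of each list per comparison with the smallest p; some of these are not reported here.

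Counts were tested with edgeR 4.0.16 in R 4.3.3 (TMM, glmQLFit, glmQLFTest, two-sided, Benjamini-Hochberg over all genes that had a count in 1 or more libraries of the fit). Diets were compared in each muscle over 8 libraries without covariates. Muscles and the interaction were fitted over 16 libraries with calf as a block. The standard error was the size of the log2 fold change divided by the square root of F. Log2 CPM had a prior count of 2. Correlations used exact permutation over the 40320 orders of 8 calves, which is approximate for values centred by diet. Alternatives were RLE factors, filterByExpr, DESeq2 1.42.0, limma-voom 3.58.1, log2(TPM + 1), both muscles in 1 fit, blocks, and leaving out each calf. The steps were tested on simulated data, in which DESeq2 in each comparison, and edgeR without a filter on low counts in each but the diets of sirloin muscle, made more false calls than the threshold allows. Between muscles edgeR with filterByExpr and limma-voom did not. Depth was 44473011 to 72446933 counts per library, so that the spread between calves rather than counting error set the precision.

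After group means were removed, the round and sirloin libraries of a calf correlated at 0.311 to 0.765 and those of different calves at −0.524 to 0.456. Each library's best match in the other muscle was the same calf (8 of 8 in each direction), so the numbers, which the labels give to a round and a sirloin library alike, were taken to pair the muscles of a calf. Same-numbered calves of the 2 diets correlated at −0.28 to 0.29 and were not treated as pairs.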

Additional observations from a re-analysis of the deposited data

Results flagged for a closer look

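FOXO1 in sirloin muscle of treated replicate 2 measured 416 CPM, far from the other 3 treated calves, which lay between 77.9 and 107 CPM. The gap to the nearest of them was 0.914 of the whole range of the group, above Dixon's 95% critical value for 4 samples. With 40 groups of 4 tested, chance flags about 1 in 20, and 1 of the 40 was flagged. The same calf also had the highest FOXO1 value in round muscle, 221 CPM.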

How the results depend on the processing

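The limits are few calves and wide spread: 4 calves per diet, and within-group standard deviations near the means for FBXO32 and TRIM63. RLE factors, filterByExpr and both muscles in 1 fit kept every count of called genes within 1.5 times. In round muscle the 4 genes called by diet became 45 with DESeq2, 1 with limma-voom, 2 with the replicate number as a block and 0 to 3 without 1 calf. In sirloin muscle the 2 genes became 13, 0, 0 and 0 to 1 in the same order. None of the 10 genes was called by diet or in the interaction in any alternative. For the interaction, 1 gene became 4 with DESeq2, 0 without the block and 0 to 2 without 1 calf. Between muscles, 109 genes became 862 with DESeq2, 14 without the block and 35 (without control replicate 4) to 322 (without treated replicate 4), and the 1 called member became 5, 0 and 0 to 2, and 0 with limma-voom. The replicate number as a block across diets pairs calves that share only a number. The causes were not tested.

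Several log2 fold changes turned direction, not all of them near 0, and none of these had passed the test. In round muscle FBXO30 was 0.23 with limma-voom and 0.23 (0.225) with the replicate block, and FOXO3 0.0104 with limma-voom. In sirloin muscle TRIM63 was −0.36 (−0.355) with the replicate block, and the interaction of FOXO1 was 0.15 without the block. Without 1 calf, the round values ran from −1.17 to 0.0194 for FBXO32, −0.30 to 0.31 for FBXO30, −0.12 to 0.61 for FOXO1, −0.34 to 0.25 for FOXO3 and −0.10 to 0.18 for FOXO4. The sirloin values ran from −0.13 to 1.22 for FBXO32, −0.58 to 0.60 for TRIM63, 0.23 to 1.32 for FBXO30 (no turn), −0.43 to 0.32 for FBXO40, −0.41 to 0.76 for FOXO1, −0.13 to 0.72 for FOXO3 and −0.50 to 0.22 for MUSTN1. Between muscles TRIM63 ran from −0.0597 to 0.48 and FBXO40 from −0.24 to 0.0791, and in the interaction FBXO32 ran from −0.15 to 0.91 and FOXO1 from −0.22 to 0.18.

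The 4 pairs of genes past the threshold over calves became 8 in sirloin muscle alone, 0 without the 2 farthest calves and 0 without control replicate 2, and the 4 genes whose round and sirloin levels correlated became 0 under each of the last 2 settings. Fewer calves also raise the smallest p that a permutation can give, and with 6 calves a single pair could not pass. All 180 alternative values of the TPM levels stayed within 1 SD, a wide margin where the SD is near the mean (KLHL40 in round muscle, 660 ± 677 TPM). Leaving out 1 of 8 calves cannot move a mean by 1 SD, so such settings could not have given another outcome.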
